A study of Rattus norvegicus with 24 samples.

Results

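The ErbB receptors and their neuregulin ligands were followed in thoracic propriospinal (TPS) neurons, the neurons of the thoracic cord whose axons stay within the spinal cord and run to other segments. The family was taken as 7 genes, Egfr, Erbb2, Erbb3, Erbb4, Nrg1, Nrg2 and Nrg3, and members were found by the gene symbol that the platform annotation gives a probe. Of the 14324 gene symbols with a probe, 6 were members, each carried by 1 probe, and no probe carried the symbol Nrg3. All 6 probes were above the filter on low values that left 23240 of 27342 probes for testing.

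The animals were female Long Evans rats of 77 ± 10 days, and 1 array was made per animal. In every animal, controls included, the tracer Fluoro-Gold was injected into the upper lumbosacral enlargement, and labelled neurons were later cut by laser from sections of the thoracic cord. Transected animals received a complete transection at the ninth thoracic level 1 week after labelling and formed 4 groups. The early groups, 3 days and 1 week after the lesion, had 4 animals each. The late groups, 2 weeks and 1 month after it, had 2 animals each. Controls had an intact cord and were taken 10 days, 3 weeks or 5 weeks after labelling (n = 4 each), times that come from the study's methods. In the labels these controls carry the times 4 days, 2 weeks and 1 month instead. The 3-day and the 1-week animals share the 10-day controls. By the methods the 1-week animals were taken 2 weeks after labelling. In that time they differ from these controls and from the 3-day animals. The 2-week animals were compared with the 3-week controls and the 1-month animals with the 5-week controls. The RNA of all captured cells of an animal was amplified together.

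The ErbB family are receptor tyrosine kinases that pair on binding a ligand of the epidermal growth factor (EGF) family. Egfr binds EGF-like ligands, Erbb3 and Erbb4 bind neuregulins, Erbb2 has no known ligand and acts as the preferred partner, and Erbb3 has little kinase activity of its own. Signals pass through adaptors to the Ras-MAP kinase and PI3 kinase-Akt pathways, which also induce their own inhibitors. In the nervous system neuregulin signalling is best known for its role in Schwann cells, where it works through Erbb2 and Erbb3, and for Erbb4 in interneurons and their synapses.

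The captured material had the genes of neurons and also those of glia. All 12 neuronal markers were above the filter, and the mean log2 intensity of the vesicle protein gene Snap25 was 12.28, higher than 99.9% of probes. Glial markers were also high, with a mean log2 of 10.28 for the astrocyte filament gene Gfap and 11.23 for the myelin gene Mbp. In such bulk RNA, fewer cells of a type and less RNA per cell cannot be told apart. Array medians ran from 73.6 to 81.3 in intensity units, and arrays of 10-day controls 3 and 4 had the lowest quality weights of the 24 (0.328 and 0.477). The labels give no batch.

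Erbb4 was the only member called. Its level was lower 3 days after transection than in the 10-day controls and lower than at 1 week, and it also differed between uninjured controls taken at different times. None of the other 5 measured members passed the test in any of the 11 comparisons made, in which 0% to 10.2% of all probes were called. A probe was called at an adjusted p under 0.05 in limma (Benjamini-Hochberg over all 23240 probes), with the 7 groups in 1 model.

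**Figure D1:**
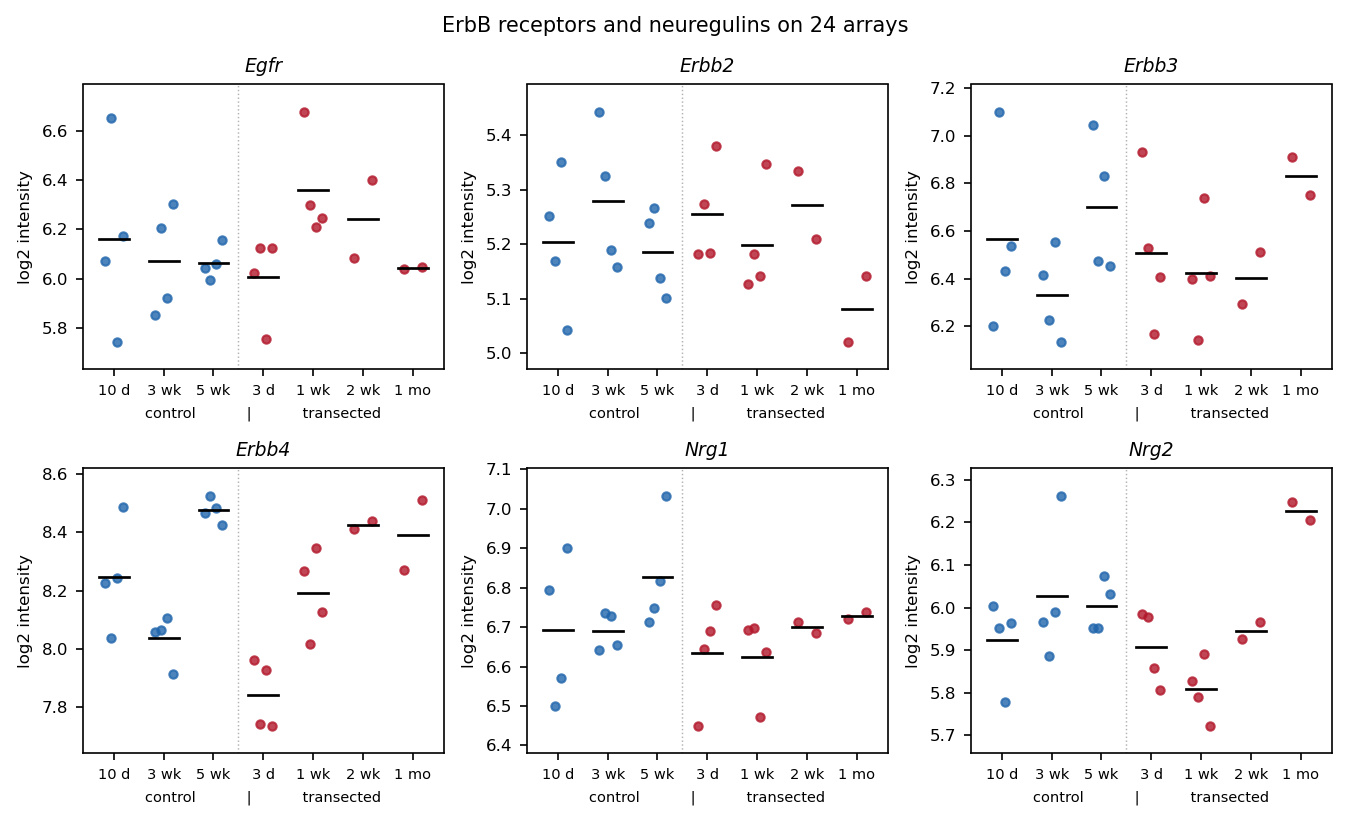
Log2 intensity of the 6 measured members on each of 24 arrays (points), by group, with the group mean as a bar; controls are named by time after labelling and transected animals by time after transection. Each panel has its own axis, which does not start at 0. The 4 Erbb4 values at 3 days, 7.74 to 7.96, lie below all 10-day controls, and both Nrg2 values at 1 month lie above the 5-week controls.

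Erbb4 encodes the receptor that binds neuregulins and has an active kinase. Its probe had a mean log2 intensity of 8.20 over the 24 arrays, higher than 82.7% of all probes. The log2 levels in the 10-day controls were 8.23, 8.04, 8.24 and 8.49. The 3-day animals had log2 levels of 7.96, 7.74, 7.93 and 7.74. All 4 transected animals were below all 4 controls, a separation found for 5.51% of the probes tested in this comparison. Erbb4 fell by 0.41 on the log2 scale at 3 days (SE 0.092, 95% interval -0.60 to -0.21), which is 0.755 of the control level, with an adjusted p of 0.0169 in limma. In this comparison 2.89% of all probes were called, and 1 of 6 members.

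The call at 3 days depended on single arrays. Leaving out 10-day control 4, the highest of its group, gave a difference of -0.33 with an adjusted p of 0.0628 in limma, and leaving out 3-day animal 2 or 4 gave adjusted p values of 0.0629 and 0.0605. With 10-day controls 1 and 2 only, without both arrays of low weight, the difference was -0.29 and the adjusted p 0.220. When all 12 controls were pooled the difference was -0.41 with an adjusted p of 0.0132. With this setting 9.11% of all probes were called, against 2.89% in the reported model. The 3-week controls, with log2 levels of 8.06, 8.06, 8.11 and 7.92, overlapped the range of the 3-day animals, so the low level was not outside that of every uninjured group.

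**Figure D2:**
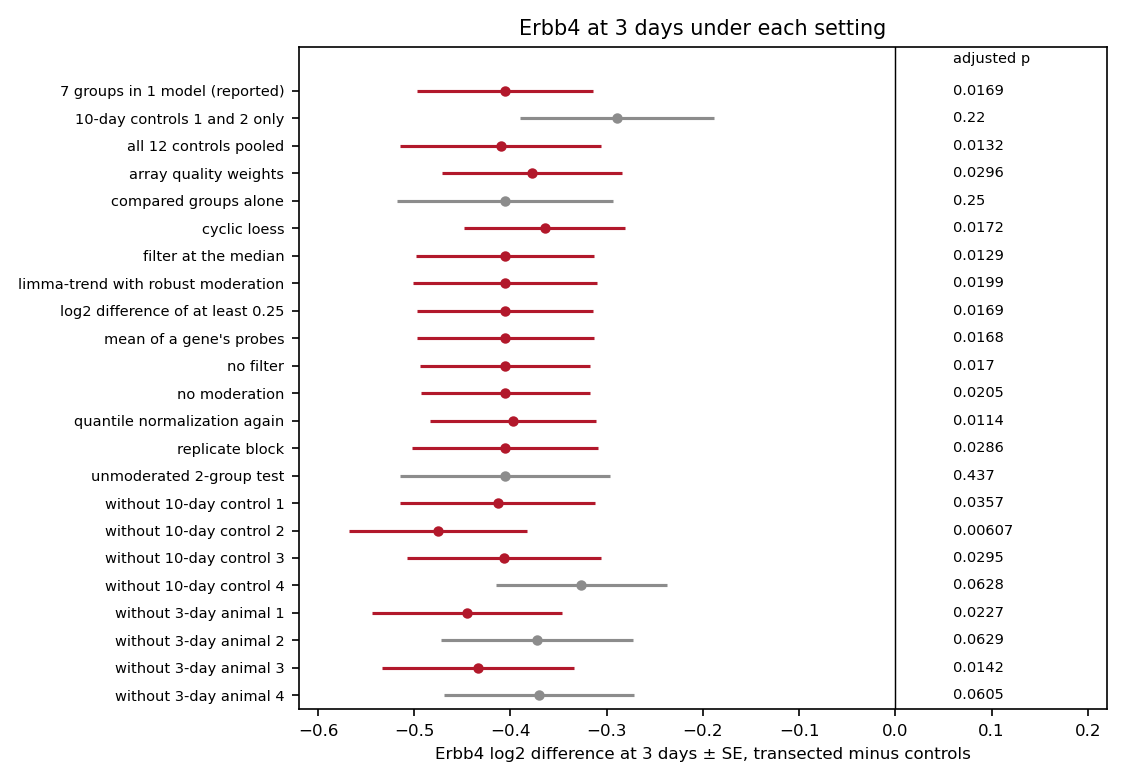
Difference of Erbb4 between the 3-day animals and the 10-day controls in log2 units (points, bars are SE) under the reported model and each alternative that touches these groups, with the adjusted p at the right; red points are called and grey points are not. Every difference lies below 0, from -0.48 to -0.29, and 6 of the alternatives shown lose the call.

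At 1 week the Erbb4 levels were 8.27, 8.02, 8.35 and 8.13 on the log2 scale. These values lay within the range of the 10-day controls but for 8.02, just under their lowest. The difference from the controls was -0.058 (SE 0.092, 95% interval -0.25 to 0.13, adjusted p = 0.999 in limma). No probe was called at 1 week (0%). Before adjustment 1031 of the 23240 probes tested had p under 0.05 in limma, a number not read as a sign of change. The unmoderated 2-group test also called 0. Non-overlapping groups were found for 1.76% of probes at this time, and for no member.

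The 3-day and 1-week animals also differed in time since labelling. The 3-day animals were below the 1-week animals in Erbb4, with no overlap between their 4 values each. Such a separation held for 6.68% of all probes. The difference, 3 days minus 1 week, was -0.35 (SE 0.092, adjusted p = 0.0464 in limma), where 2.47% of all probes were called. The adjusted p lay close to the threshold, and dropping any one of 17 of the 24 arrays, in turn, raised it above 0.05 with values up to 0.166.

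At 2 weeks both Erbb4 levels, 8.41 and 8.44, were above all 4 of the 3-week controls. The difference was 0.39 (SE 0.11, 95% interval 0.16 to 0.62), with an unadjusted p of 0.00234 and an adjusted p of 0.618 in limma, so it was not called. With 2 animals against 4 controls 17.7% of probes did not overlap, and no probe was called (0%). Before adjustment 1229 of the 23240 probes had p under 0.05. The unmoderated 2-group test called 0 as well. Against all 12 controls the difference was 0.17, since the 3-week controls had the lowest Erbb4 level of the 3 control groups.

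At 1 month the Erbb4 levels of 8.27 and 8.51 overlapped the 5-week controls, which were 8.47, 8.52, 8.48 and 8.43. The difference was -0.084 (SE 0.11, 95% interval -0.32 to 0.15, adjusted p = 1 in limma). At this time no probe was called (0%), 799 of the 23240 probes had p under 0.05 before adjustment, and 13.5% of probes did not overlap. The unmoderated 2-group test made 2 calls.

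The size of the Erbb4 difference changed between 3 days and 2 weeks. Taking each against its own controls, the 3-day difference was lower than the 2-week difference by -0.79 (SE 0.14, adjusted p = 0.0365 in limma), 1 of 21 probes called in this comparison (0.0904%). With all 12 controls pooled this became -0.58 with an adjusted p of 0.0917. Leaving out 2-week animal 3 or 4, which leaves 1 animal assumed to vary like the other groups, gave adjusted p values of 0.203 and 0.418. In all, 14 of the 24 arrays ended the call when left out one at a time. The corresponding test between 3 days and 1 month gave -0.32 (SE 0.14, adjusted p = 0.640), and there too 0.0904% of probes were called. Over the 4 times together Erbb4 differed by -0.039 (SE 0.056, adjusted p = 0.926), with 0.404% of probes called.

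Erbb4 also differed among uninjured animals. The 5-week controls were above the 3-week controls by 0.44 (SE 0.092, adjusted p = 0.00932 in limma), a difference as large in size as that at 3 days. All 4 of the 5-week values were above all 4 of the 3-week values, as for 23.0% of all probes, and 10.2% of all probes were called here, so such a call was common in this comparison. After a further quantile normalization the difference was 0.28 (adjusted p = 0.0625), and after cyclic loess it was 0.28 (adjusted p = 0.0552). The median intensities of the 5-week arrays, 73.6 to 75.6, were below those of the 3-week arrays, 78.6 to 80.7. The 3-week controls differed from the 10-day controls by -0.21 (adjusted p = 0.302) and the 5-week controls from the 10-day controls by 0.23 (adjusted p = 0.301). In these comparisons 0% and 0.00430% of probes were called, and 3315 and 3065 of the 23240 probes had p under 0.05 before adjustment. The unmoderated 2-group test made 0 calls in both.

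From the lowest to the highest mean the Erbb4 order was the 3-day animals (7.84 ± 0.12, SD), 3-week controls (8.04 ± 0.083), 1-week animals (8.19 ± 0.15), 10-day controls (8.25 ± 0.18), 1-month animals (8.39 ± 0.17), 2-week animals (8.43 ± 0.018) and 5-week controls (8.47 ± 0.041). Each neighbouring pair in this order overlapped in its single values. The SD of the 24 values was 0.24 and their whole range 0.79 in log2 units.

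Other markers moved at 3 days together with Erbb4, in a comparison where 2.89% of all probes were called. Of 11 microglia and macrophage markers 9 were called, all higher, and their summed intensity was 6808 to 9228 in the 3-day animals against 2029 to 5463 in the 10-day controls. All 4 markers of dividing cells with a probe were higher, with summed intensities of 565 to 1399 against 182 to 537. Of 8 astrocyte markers 6 lay below 0 and 2 above, with a median difference of -0.25, and 2 were called, the GABA transporter gene Slc6a11 (-1.34, adjusted p = 2.73e-05 in limma) and the potassium channel gene Kcnj10 (-0.89, adjusted p = 0.00103). Of 12 neuronal markers 9 lay below 0 and 3 above, with a median of -0.062. Among these the tubulin gene Tubb3 was called higher (0.34), and Rbfox3, which encodes the nuclear protein NeuN, was called lower (-0.40, adjusted p = 0.0386), a difference about the size of that in Erbb4. The summed neuronal markers were 27301 to 29721 against 27555 to 30181 and the summed astrocyte markers 8583 to 10701 against 7570 to 12958, both overlapping. The part of these markers in the Erbb4 result was not tested. Between the 5-week and 3-week controls, where 10.2% of all probes were called, 4 of 8 astrocyte and 3 of 9 oligodendrocyte markers were called higher. So were 2 of 12 neuronal and 1 of 5 vessel markers. All 4 markers of transmitter identity lay above 0 there (median 0.40), and 2 were called, Slc6a5 (0.58) and Gad2 (0.47). The summed oligodendrocyte markers were 12572 to 13539 in the 5-week controls against 10246 to 11468 in the 3-week controls.

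**Figure D3:**
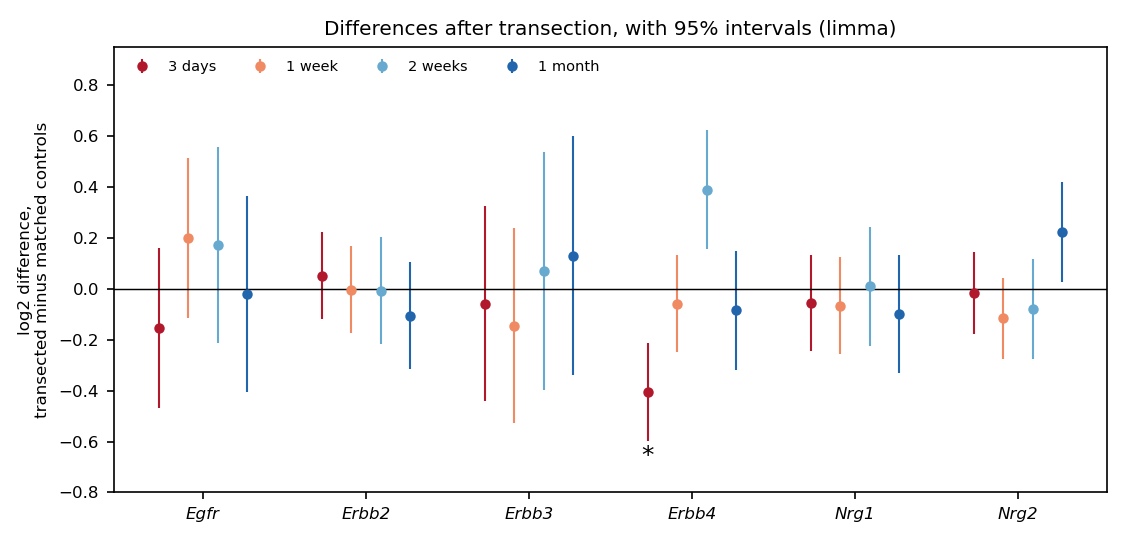
Log2 difference of each measured member between transected animals and the controls they were compared with at each of the 4 times, with 95% intervals from limma. The asterisk marks the call at an adjusted p under 0.05. Erbb4 at 3 days carries the only asterisk, and the intervals of Erbb4 at 2 weeks and Nrg2 at 1 month also leave out 0 but were not called.

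Egfr encodes the receptor of EGF and its relatives. It had a mean log2 level of 6.13, near the middle of all probes. The 10-day controls were 6.07, 6.65, 5.74 and 6.18, the widest spread of any Egfr group (SD 0.38). The 3-day animals were 6.02, 6.13, 5.75 and 6.13, and the 1-week animals were 6.68, 6.30, 6.21 and 6.25. Both groups overlapped the controls, with differences of -0.15 (SE 0.15) at 3 days and 0.20 (SE 0.15) at 1 week. All 4 of the 3-day values were below all 4 of the 1-week values, a separation that 6.68% of all probes showed. That difference was -0.35 (SE 0.15, unadjusted p = 0.0303, adjusted p = 0.320 in limma), so it did not pass, although it was of the same size as that of Erbb4. Later differences were 0.17 (95% interval -0.21 to 0.56) at 2 weeks and -0.022 (95% interval -0.41 to 0.36) at 1 month.

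Erbb2, the receptor without a ligand, was the dimmest member, with a mean log2 of 5.22, near the filter of 5.05. Its 24 values ran from 5.02 to 5.44 and every transected group overlapped its controls. The 4 differences lay between -0.11 at 1 month and 0.052 at 3 days, with SEs of 0.082 to 0.10 and adjusted p values of 0.874 or higher in limma.

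Erbb3, which binds neuregulins and signals mainly through its partner, had a mean log2 of 6.52 and the largest scatter of the family (SD 0.28 over 24 arrays). The 10-day controls were 6.20, 7.10, 6.43 and 6.54 and the 3-day animals 6.93, 6.53, 6.17 and 6.41. The groups overlapped at all 4 times, and the differences were -0.058, -0.15, 0.070 and 0.13 from 3 days to 1 month, with SEs of 0.18 to 0.23. The interval at 3 days, -0.44 to 0.32, holds a fall as large as that of Erbb4. Of 4 genes with a probe listed as Schwann cell markers, 2 lay above 0 and 2 below at 3 days (median 0.22). Only S100a4 was called (1.73, adjusted p = 0.00565 in limma), and whether it came from Schwann cells was not tested. The part of these markers in the Erbb3 values was not tested. Between controls Erbb3 was 0.37 higher at 5 weeks than at 3 weeks (SE 0.18, unadjusted p = 0.0588, adjusted p = 0.182), with overlapping values.

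Nrg1 encodes the neuregulin with the widest known roles in nerve, muscle and heart. Its mean log2 was 6.70. The 10-day controls were 6.79, 6.50, 6.57 and 6.90, and the 3-day animals 6.45, 6.64, 6.69 and 6.76, so the groups overlapped. Nrg1 differed by -0.056 at 3 days (95% interval -0.25 to 0.13), -0.067 at 1 week, 0.0097 at 2 weeks and -0.099 at 1 month, with adjusted p values of 0.878 or higher in limma. The intervals at 3 days and 1 week leave out a fall as large as 0.41, the value of Erbb4.

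Nrg2, a related ligand of Erbb3 and Erbb4, had a mean log2 of 5.96. At 3 days, 1 week and 2 weeks it overlapped the controls, with differences of -0.017, -0.12 and -0.080. At 1 month both animals, 6.25 and 6.21, were above the 5-week controls of 5.95, 5.95, 6.07 and 6.03, a separation that 13.5% of all probes showed at this time. The difference was 0.22 (SE 0.094, unadjusted p = 0.0276), but the adjusted p was 1 in limma and the value was not called. One 3-week control, at 6.26, was as high as these animals.

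The rest of the pathway was described by 5 lists, which together held 96 genes, 79 with a probe and 77 above the filter. At 3 days 3 of the 77 were called, 3.90% against 2.89% of all probes, and their median difference was -0.019 against -0.0082 over all probes. None was called at the later times, where 0% of all probes were called. Before adjustment 3, 8 and 6 of the 77 had p under 0.05 at 1 week, 2 weeks and 1 month. Among all 23240 probes 1031, 1229 and 799 did so. Ligands and the proteases that release them were without a call: 0 of 6 other EGF-family ligands and 0 of 4 shedding genes passed in any of the 11 comparisons, with none at p under 0.05 before adjustment at any of the 4 times. Of 34 adaptor and kinase genes 0 were called at 3 days, with 18 above and 16 below 0 and a median of 0.0063. Before adjustment 5 of these 34 were at p under 0.05, as were 3302 of all 23240 probes at 3 days.

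All 3 calls at 3 days were among the 17 early targets and feedback genes, whose median difference was -0.083. Spry2 encodes a Sprouty inhibitor that growth factor signalling induces. Its log2 levels were 9.04 to 9.62 in the 10-day controls and 8.24 to 8.84 at 3 days. These did not overlap, as for 5.51% of all probes. Spry2 fell by 0.75 on the log2 scale (SE 0.13, adjusted p = 0.00158 in limma). Its relatives Spry1 and Spry4 differed by 0.097 and -0.21 and were not called. Phlda1, an early gene that growth factors induce, was 8.54 to 8.91 in the controls and 8.14 to 8.38 at 3 days, a fall of -0.47 (SE 0.11, adjusted p = 0.0192).

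Dusp6, a phosphatase that switches off MAP kinase signalling, went the other way. It was 6.61 to 7.14 in the 10-day controls and 7.15 to 8.01 at 3 days, higher by 0.75 (SE 0.18, adjusted p = 0.0277 in limma). Spry2 and Dusp6, both known as inhibitors of this cascade, thus moved in opposite directions. Without both 10-day controls of low weight the Dusp6 difference was 0.61 with an adjusted p of 0.255, while Spry2 kept its call there. Of the 37 alternatives 35 kept the Spry2 call, 31 that of Phlda1 and 28 that of Dusp6. The Phlda1 call was lost without 10-day control 1, 3-day animal 1 or 3-day animal 2, with differences of -0.42, -0.47 and -0.43. The Dusp6 call was lost without 10-day control 1, 3 or 4 (0.76, 0.67 and 0.75) and without 3-day animal 2 or 4 (0.62 and 0.63).

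**Figure D4:**
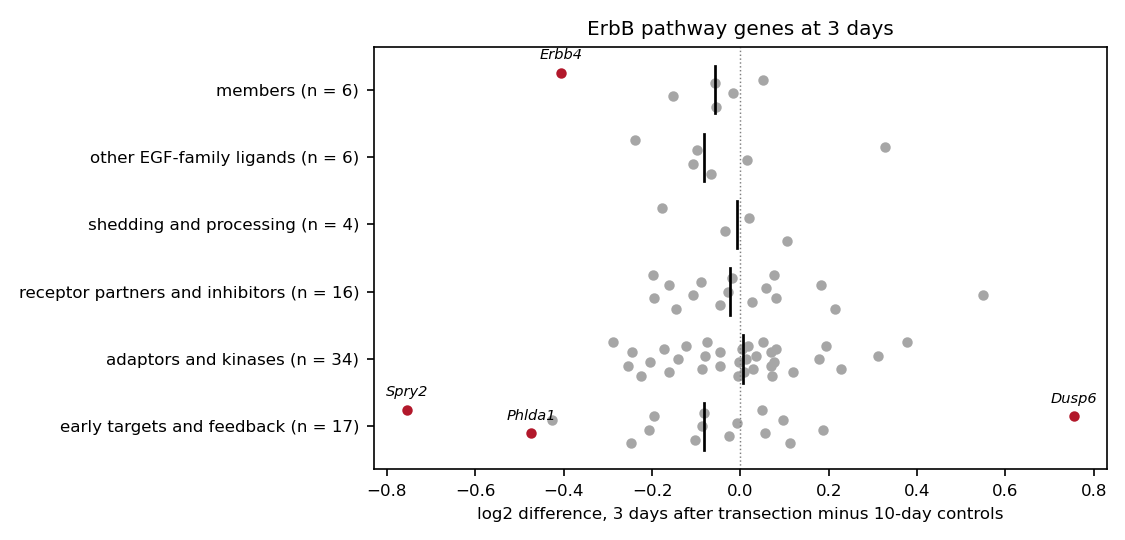
Log2 difference at 3 days for each tested gene of the family and of 5 pathway lists (points), with list medians as bars; red points with names are called at an adjusted p under 0.05. Erbb4, Spry2 and Phlda1 lie below 0 and Dusp6 above, while most other genes lie within 0.4 of 0.

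Between 3 days and 1 week 4 of the 77 pathway genes were called, 5.19% against 2.47% of all probes, again all early targets. Spry2 was lower at 3 days by -0.63, Phlda1 by -0.42 and Egr1, an immediate early transcription factor, by -0.77 (SE 0.16, adjusted p = 0.0100 in limma), and Dusp6 was higher by 0.82. The Egr1 levels were 6.87 to 7.61 at 3 days and 7.72 to 8.14 at 1 week. Against the 10-day controls, at 7.46 to 7.77, Egr1 differed by -0.43 at 3 days (adjusted p = 0.171) and 0.34 at 1 week (adjusted p = 0.999), so neither was called alone. At 1 week Spry2 differed from controls by -0.13, Phlda1 by -0.056 and Dusp6 by -0.068, none of them called.

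**Figure D5:**
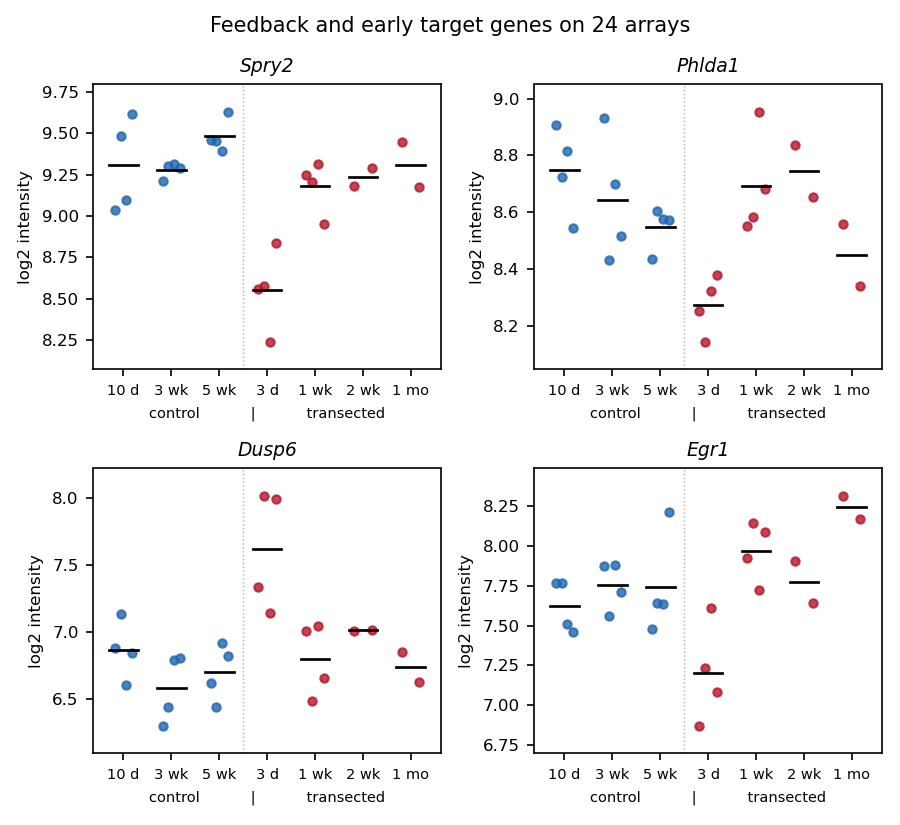
Log2 intensity of Spry2, Phlda1, Dusp6 and Egr1 on each of 24 arrays (points) by group, with the group mean as a bar and a separate axis in each panel that does not start at 0. The 3-day values of Spry2 and Phlda1 lie below all 10-day controls and those of Dusp6 above. At 3 days 5.51% of all probes did not overlap. The lowest 3-day Dusp6 value, 7.145, is just above the highest 10-day control, 7.136. Dusp6 at 3 days is split between 7.15 to 7.34 and 7.99 to 8.01.

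Of 16 receptor partners and inhibitors 1 was called over the 4 times together, where 0.404% of all probes were called. Cpne3, which encodes a copine that binds Erbb2, was higher by 0.47 (SE 0.094, adjusted p = 0.0246 in limma). At single times its difference was 0.55, 0.36, 0.72 and 0.26 from 3 days to 1 month, and none of these was called. It was not called without 1-month animal 1 (0.43, adjusted p = 0.108) or without 2-week animal 3 (0.45, adjusted p = 0.109), nor with 10-day controls 1 and 2 only (0.44, adjusted p = 0.0611) or with no moderation of the variances (adjusted p = 0.0624).

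Between the 5-week and 3-week controls 10 of the 77 pathway genes were called, 13.0% against 10.2% of all probes. Of the adaptors and kinases 6 were higher, Akt1 (0.57), Akt2 (0.56), Plcg1 (0.48), Ptpn11 (0.46), Crkl (0.32) and Crk (0.31), and Nck2 was lower (-0.24). These encode kinases, a phospholipase, a phosphatase and adaptors that carry receptor signals inward. Dlg4, the postsynaptic scaffold PSD-95 that binds Erbb4, was higher by 0.69 (SE 0.14, adjusted p = 0.00797 in limma), and the ubiquitin ligase gene Cblc was lower (-0.36). The inhibitor gene Spred1 was higher by 0.33. Counts under other settings cover 76 of these genes. They were not set against the share of all probes called under the same setting. After a further quantile normalization 3 pathway genes were called here, and after cyclic loess 4. The count rose to 21 with array quality weights and to 16 with 10-day controls 1 and 2 only. Leaving out single arrays gave 2 to 15, the lowest count without 3-week control 3 or 5-week control 2.

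The probes most like each member over the 24 arrays were sought among 13701 probes with 1 symbol. Erbb4 was most like Ncoa1 (r = 0.88, rho = 0.89), Hsph1 (r = 0.87, rho = 0.87) and Cert1 (r = 0.86, rho = 0.87). Egfr was most like Gas7 (r = 0.76, rho = 0.75), Abl1 (r = 0.73, rho = 0.48) and Ephx1 (r = 0.72, rho = 0.69). The dim Erbb2 probe was most like Krtap5-8 (r = 0.81), Apobec4 (r = 0.79) and Fgf8 (r = 0.79). Erbb3 was most like Agpat4 (r = 0.78), Nudt2 (r = 0.73) and Atg7 (r = 0.71). Nrg1 was most like Fbxo33 (r = 0.81), Slc25a27 (r = 0.79) and Kctd15 (r = 0.78), and Nrg2 most like Arid5b (r = 0.79), Chchd3 (r = 0.77) and Dapk1 (r = 0.74). These correlations describe arrays that share groups, amplification and normalization. Among the members themselves r ran from -0.51, for Erbb2 with Nrg2, to 0.38, for Erbb4 with Nrg1.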

How the data were processed

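RNA of laser-captured, Fluoro-Gold labelled neurons was extracted, amplified and hybridised to Affymetrix Rat Gene ST arrays by the authors. The authors normalized the arrays with RMA, and the deposited values are intensity on a linear scale, from 17 to 7980, with 2337 values at the lowest value. Their log2 was taken here. The scale was read from the values.

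Probes were named through the platform annotation (1 symbol for 15097 of 27342 probes, several for 323, none for 11922). Probes in the lowest 15% by mean log2 were left out. All 24 arrays entered a limma model of 7 group means, with 11 contrasts and Benjamini-Hochberg adjustment within each (R 4.3.3, limma 3.58.1). The model was tested on simulated data with 200 of 23240 probes changed. At 3 days it called 0%, 47.5% and 95% of changes of 0.25, 0.5 and 1 on the log2 scale. At 1 month it called 0%, 24.5% and 91.5% of them, so small changes could be missed. The number of arrays limits the precision, and the p-values set a difference against the spread between animals within groups. A shift shared by all arrays of a group is not covered by them. An unmoderated 2-group test with equal variances was run per comparison on the same values as an alternative. The study's methods name a 2-way analysis of variance for the arrays, for which the mean over the 4 times stands here.

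Named were all members, the 3 probes most like each, and list genes called in a comparison, up to 6 per list. Members and lists were chosen with earlier results of these data known. Levels of different probes are not comparable between genes. The alternatives were other filters, normalizations, weights, moderation, control sets, a replicate block and each array left out. The use of only 10-day controls 1 and 2 was chosen after seeing the data.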

Additional observations from a re-analysis of the deposited data

Results flagged for a closer look

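The Erbb4 difference after transection passed the test of a change with time in 2 pairs of times, and both calls were easily lost. It was lower at 3 days than at 1 week by -0.35 on the log2 scale, in groups that also differ in time since labelling. Every 3-day animal lay below every 1-week animal, as for 6.68% of all probes. The call between 3 days and 1 week was lost without any one of 17 of the 24 arrays, with adjusted p values up to 0.166 in limma. It was also lost under 6 further alternatives. The Erbb4 difference was lower at 3 days than at 2 weeks by -0.79, each against its own controls, with 2 animals at 2 weeks. This call was lost without any one of 14 of the 24 arrays, and with all 12 controls pooled (-0.58, adjusted p = 0.0917 in limma). Among 30 groups of 4 animals, 5 for each measured member, no animal stood apart from the other 3 by Dixon's test.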

How the results depend on the processing

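The members called at 3 days went from 1 to 0 with the compared groups alone (Erbb4 adjusted p = 0.25), with the unmoderated 2-group test (0.437) and with 10-day controls 1 and 2 only (0.220), and ranged from 0 to 1 when single arrays were left out. Between 3 days and 1 week the count went from 1 to 0 with all 12 controls pooled, the compared groups alone, limma-trend with robust moderation, no moderation, the replicate block and the unmoderated 2-group test, and from 0 to 1 without single arrays. Between 3 days and 2 weeks it went from 1 to 0 with pooled controls, the compared groups alone, no moderation, the replicate block and 10-day controls 1 and 2 only, and from 0 to 1 without single arrays. Between 5-week and 3-week controls it went from 1 to 0 with cyclic loess and with quantile normalization again. The compared groups alone and the 2-group test use fewer arrays than the reported model. The causes of the lost calls were not tested. The direction of the Erbb4 difference at 3 days was below 0 in all 37 alternatives, from -0.48 to -0.29. No called value changed sign.

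Replicate numbers did not pair the animals: deviations of arrays with the same number correlated at 0.022 on average (55 pairs, -0.19 to 0.20). With the replicate block Erbb4 was -0.41 at 3 days (adjusted p = 0.0286 in limma), -0.38 between 3 days and 1 week (0.0886) and -0.77 between 3 days and 2 weeks (0.140).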
